A study of Mus musculus with 4 samples.

Results

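Proteasome genes of 3 kinds were followed in B16-OVA mouse melanoma cells: the inducible catalytic subunits of the immunoproteasome (Psmb8, Psmb9 and Psmb10), the constitutive subunits whose places they take (Psmb5, Psmb6 and Psmb7), and the genes of the PA28 activators (Psme1, Psme2 and Psme3). They were chosen by gene symbol in the platform's annotation, which gave 9 genes of the 22180 measured, each with 1 probe of its own. RNA levels came from 4 Affymetrix gene arrays. The cells were a melanoma line grown from B16 that also makes ovalbumin. Of the arrays, 2 were of mock transfected cells and 2 of cells transfected with AT90ES, which the labels link to a double-stranded DNA given with Lipofectamine 2000 for 6 hours as a 90mer. The labels carry the same treatment text for both groups, so the sources used here do not say what mock cells were given, and the DNA and the transfection itself cannot be told apart. Nothing in the labels says that the replicates were separate cultures, so the p-values speak only of spread between arrays, which may be technical.

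The proteasome is the barrel-shaped protease that breaks down ubiquitin-tagged proteins, and its cuts supply most of the peptides that MHC class I molecules show to T cells. Interferons make many cells replace the constitutive catalytic subunits with the inducible ones, which changes the peptides that are cut. The same signals raise the PA28 alpha and beta genes, Psme1 and Psme2, whose products cap the barrel and speed peptide release, whereas the nuclear PA28 gamma, from Psme3, is not a typical interferon target. B16 cells are known for low levels of antigen processing genes that interferon can raise.

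The start regions of 3 genes are shown: Psme1 had the highest measured change, Psmb9 had the lowest and shares its region with a gene that rose, and Psmb8 is a near neighbour of Psmb9. They are RefSeq windows on GRCm38.p6 (mouse) of 300 bases, 250 before and 50 after the annotated start, and 8 of the 9 genes had at least 1 window. Psmb7 had none. Capitals mark matches to 3 motifs searched on both strands: the core of the interferon-stimulated response element, which is GAAA in 2 copies with any 2 bases between them, TTCNNNGAA, the core of the gamma-activated site, and GGGCGG, the GC box. The window of Psme1 is chr14:55578244-55578543 (plus strand), that of Psmb9 is chr17:34187281-34187580 (minus strand) and that of Psmb8 is chr17:34197945-34198244 (plus strand).
Psme1: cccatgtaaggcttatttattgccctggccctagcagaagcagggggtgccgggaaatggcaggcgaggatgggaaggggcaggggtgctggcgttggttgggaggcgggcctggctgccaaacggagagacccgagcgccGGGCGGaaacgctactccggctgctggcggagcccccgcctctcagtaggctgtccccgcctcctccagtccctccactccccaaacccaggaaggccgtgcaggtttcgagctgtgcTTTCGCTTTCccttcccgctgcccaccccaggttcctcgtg
Psmb9: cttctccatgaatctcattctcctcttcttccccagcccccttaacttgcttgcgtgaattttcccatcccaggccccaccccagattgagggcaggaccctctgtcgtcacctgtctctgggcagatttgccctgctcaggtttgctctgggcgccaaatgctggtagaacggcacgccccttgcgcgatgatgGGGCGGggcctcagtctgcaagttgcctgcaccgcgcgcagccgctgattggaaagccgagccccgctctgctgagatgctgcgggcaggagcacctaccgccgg
Psmb8: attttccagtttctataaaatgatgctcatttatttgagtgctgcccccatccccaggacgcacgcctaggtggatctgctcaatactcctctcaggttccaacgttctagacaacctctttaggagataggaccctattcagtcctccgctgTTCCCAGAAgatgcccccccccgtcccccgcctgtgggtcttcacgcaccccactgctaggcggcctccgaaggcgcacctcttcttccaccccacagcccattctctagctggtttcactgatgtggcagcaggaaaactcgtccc

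The response element core was found in 1 of the 8 genes' windows, that of Psme1, where it reads TTTCGCTTTC on the printed strand from base 10 to base 19 of the transcript. Of all 32851 windows of this length, 3.44% held it. The gamma-activated site core was found only in the Psmb8 window among these genes, as TTCCCAGAA from base -97 to base -89 relative to the start, against 8.3% of all windows. The GC box lay in the windows of Psmb9, Psmb6, Psme1 and Psme2, and in 35.7% of all windows. The windows of Psmb10, Psmb5 and Psme3 held 0 matches. A match describes letters in a window and is not a measured binding site, and 0 matches say only that these letters are not in the window around the annotated start, while other starts may be used. The Psmb9 window overlaps that of Tap1, a peptide transporter gene read in the other direction, over 275 bases, and their starts lie 226 bases apart. In the RefSeq order on chromosome 17, Psmb9, Tap1, Psmb8 and Tap2 are direct neighbours.

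After AT90ES transfection 0 of the 9 genes passed the test as higher or lower in limma (Benjamini-Hochberg adjusted p under 0.05 over all genes), whereas 0.415% of all genes passed as higher and 0% as lower. At an unadjusted p under 0.05, 2 of the 9 were higher (Psme1 and Psmb10) and 0 lower, beside 4.5% and 4.59% of all genes. Both AT90ES arrays lay above both mock arrays for 3 genes, Psmb10, Psmb5 and Psme1 (17.7% of all genes), and below them for 1, Psmb9 (22.1% of all genes). The median log2 fold change of the 9 was 0.05, beside -0.02 for all genes. The measured changes ran from -0.20 for Psmb9 to 0.37 for Psme1. With an intensity trend in the spread, Psme1 passed (adjusted p = 0.0257), as did 1.94% of all genes as higher and 0.73% as lower. Over the alternatives tried the adjusted p of Psme1 ran from 0.0257 to 0.79.

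**Figure D1:**
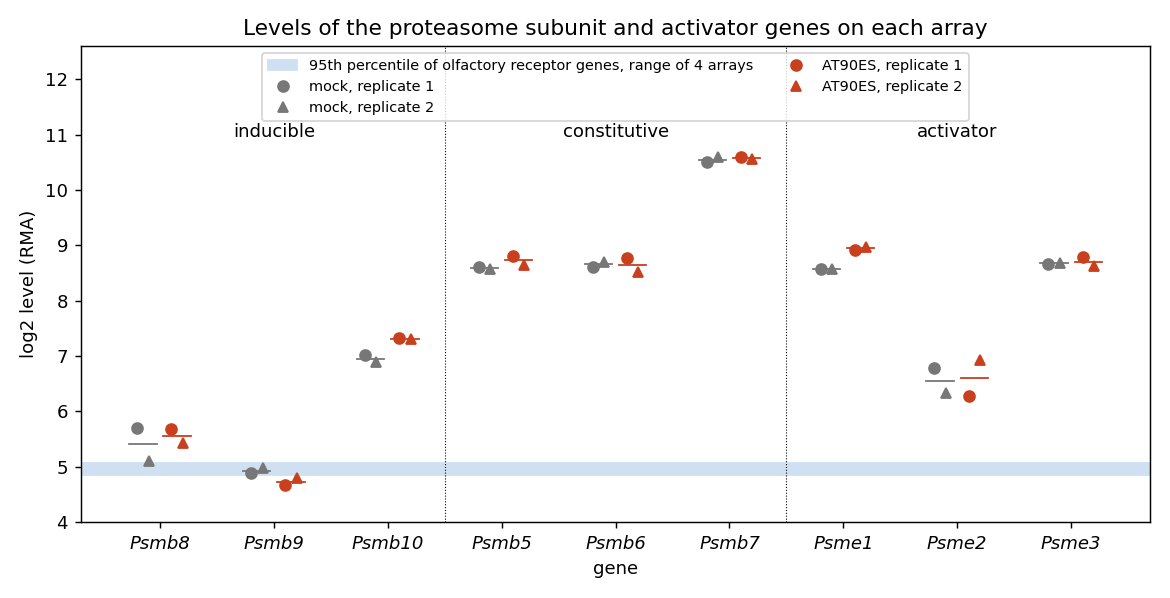
Log2 level (vertical axis) of each of the 9 genes on the 2 mock arrays (grey) and the 2 AT90ES arrays (red), with circles for replicate 1, triangles for replicate 2 and short lines at the group means. The blue band is the range over the 4 arrays of the 95th percentile of olfactory receptor genes (4.85 to 5.07), on which the Psmb9 points lie or fall below. Levels of different genes come from different probes and are not comparable.

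Psmb8 encodes the inducible subunit with chymotrypsin-like activity. Mock cells read 5.71 and 5.10 (log2 level), and AT90ES cells 5.69 and 5.42. The groups overlapped, and the mock arrays stood 0.61 apart, more than the difference between the group means. The log2 fold change was 0.15 ± 0.23 (SE, n = 2 arrays per group, limma adjusted p = 0.892), with a 95% confidence interval from -0.41 to 0.71. In fold terms the upper bound is 1.64, so a rise of up to that size could not be told from none with these arrays.

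Psmb9 encodes the subunit that takes the place of the caspase-like one. Mock cells read 4.88 and 4.98 and AT90ES cells 4.67 and 4.79, so both treated arrays were the lower ones. The log2 fold change was -0.20 ± 0.12 (SE, n = 2 per group, limma adjusted p = 0.688; 95% confidence interval -0.51 to 0.10). On 3 of the 4 arrays the probe read lower than the 95th percentile of the 1105 olfactory receptor genes, which serve here as a background since melanoma cells are assumed not to use them. A change in a probe this close to background could go unseen. Psmb8 exceeded the percentile on all 4 arrays, but on mock replicate 2 it read 5.10 against 4.93. A low probe level does not show that a gene is silent: Psma5, an essential core subunit gene named after its value was seen, lay under that percentile on all 4 arrays.

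Psmb10 encodes the inducible subunit with trypsin-like activity, and among the inducible subunits it had the highest measured change. Its level was 7.02 and 6.89 in mock and 7.32 and 7.30 in AT90ES cells. The groups did not overlap. The log2 fold change of 0.36 ± 0.12 (SE, n = 2 per group, limma adjusted p = 0.47), 1.28-fold, had a 95% confidence interval from 0.06 to 0.65 that is not adjusted for the number of genes. Of the 22180 genes 1048 had a larger rise.

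Among the constitutive subunits, Psmb5, the counterpart of Psmb8, read 8.61 and 8.56 in mock and 8.81 and 8.65 in AT90ES cells. The groups did not overlap, although the gap between the AT90ES arrays was 0.15 and the log2 fold change 0.14 ± 0.12 (SE, limma adjusted p = 0.784). Psmb6, the counterpart of Psmb9, stood at 8.62 and 8.70 in mock and at 8.77 and 8.52 in AT90ES cells, with the mock values inside the range of the treated ones. Its log2 fold change was -0.01 ± 0.14 (limma adjusted p = 0.986). Psmb7, the counterpart of Psmb10, stood at 10.50 and 10.59 in mock and 10.60 and 10.56 in AT90ES cells, a log2 fold change of 0.03 ± 0.12 (limma adjusted p = 0.96). The 95% confidence intervals of these 3 genes reached no further than 0.45 up and -0.35 down.

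**Figure D2:**
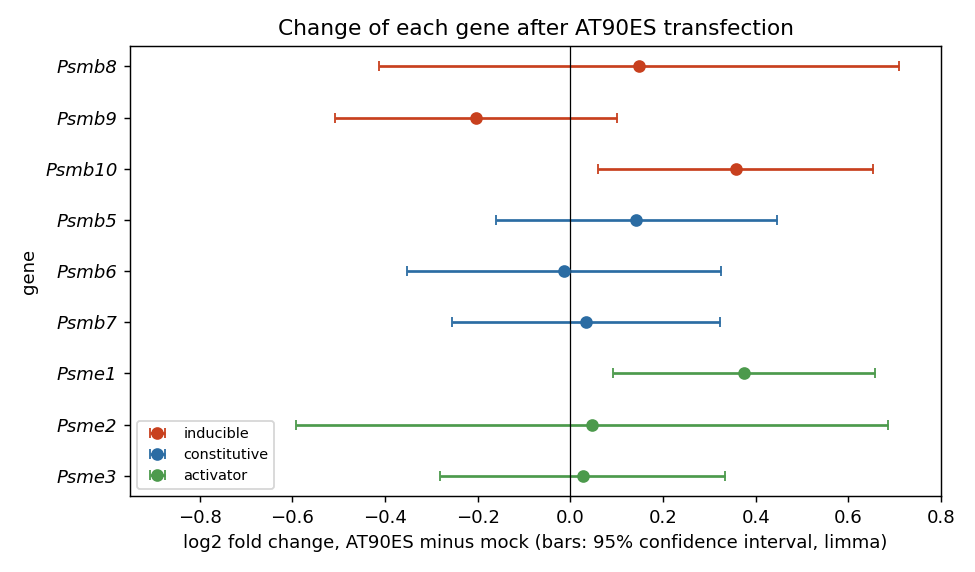
Log2 fold change, AT90ES minus mock, of each gene (points) with limma's 95% confidence interval (bars), not adjusted for the number of genes. The intervals of Psmb10 (0.06 to 0.65) and Psme1 (0.09 to 0.66) lie above 0, and the widest are those of Psme2 and Psmb8.

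Setting each inducible subunit beside its counterpart asks whether a pair changed unequally. The level of the inducible gene minus that of the constitutive gene was taken on each array, and the groups were compared by two-sided exact permutation tests, for which 2 against 2 arrays give a smallest p of 0.333. For Psmb8 and Psmb5 the difference moved by 0.01 ± 0.29 on the log2 scale (SE, n = 2 per group) and the groups overlapped (exact permutation p = 1). For Psmb9 and Psmb6 it moved by -0.19 ± 0.19, again with overlap (exact permutation p = 0.667). For Psmb10 and Psmb7 it moved by 0.32 ± 0.11, and both AT90ES arrays lay above both mock arrays (exact permutation p = 0.333, the smallest possible). The first of these differences turned with the array left out, to 0.29 without mock replicate 1 and -0.28 without mock replicate 2. The second was close to zero without AT90ES replicate 1 (-0.0027) and -0.38 without AT90ES replicate 2. The third stayed positive, between 0.21 and 0.44, whichever array was left out.

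**Figure D3:**
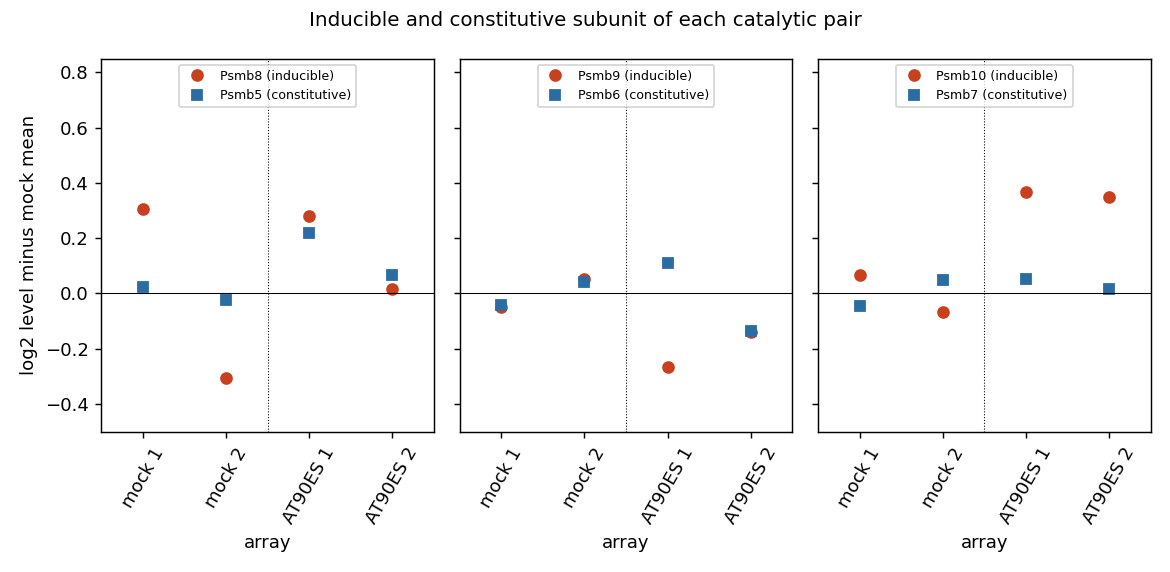
Log2 level of each inducible subunit (circles) and its constitutive counterpart (squares) on each array, minus that gene's mock mean. The circles of Psmb10 on both AT90ES arrays lie above its mock points and above the Psmb7 squares, whereas the Psmb8 circles on the mock arrays stand 0.61 apart.

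Of the activators, Psme1 (PA28 alpha) had the most even values. Mock cells read 8.58 and 8.57 and AT90ES cells 8.92 and 8.97. The groups did not overlap, and the gap within each group was at most 0.05. The log2 fold change was 0.37 ± 0.11 (SE, n = 2 per group, limma adjusted p = 0.442), 1.30-fold, and 938 genes had a larger rise. Its start window is the one with the response element core shown above, which 3.44% of all windows held. Psmb10, with a log2 fold change of 0.36, had 0 matches in its window. Any link between the core and the change was not tested.

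Psme2 (PA28 beta), whose product joins that of Psme1 in the same ring, had the least even values. Its level was 6.79 and 6.33 in mock and 6.29 and 6.92 in AT90ES cells, so that the lowest and the highest value were both from treated cells. The log2 fold change was 0.05 ± 0.26 (limma adjusted p = 0.975; 95% confidence interval -0.59 to 0.68). It ran from -0.27 to 0.36 over the alternatives, the ends of the range coming from leaving out an AT90ES array. A further probe, which the annotation gives to Psme2 and to the gene models 9930111J21Rik1 and 9930111J21Rik2 and which named no gene in the test, read 6.20 and 6.31 in mock and 6.15 and 6.20 in AT90ES cells. Psme3 (PA28 gamma) stood at 8.67 and 8.69 in mock and 8.79 and 8.62 in AT90ES cells. The groups overlapped, with a log2 fold change of 0.03 ± 0.12 (limma adjusted p = 0.971).

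The rest of the proteasome did not pass either. Of 43 listed genes of the core particle, the regulatory particle, the assembly chaperones and the other regulators, 40 were measured, and limma called 0 higher and 0 lower, and again 0 and 0 with an intensity trend or at an unadjusted p under 0.05. Their median log2 fold change was 0.03 and 39 of the 40 lay within 0.25 of zero, as did 78.5% of all genes. Of the 40, 37 lay above the olfactory receptor percentile on all arrays and 3 below it on all. The 3 were Psma5, Psma8 and Psmb11, named after their values were seen. The alpha subunits, which form the outer rings of the core, had a median of -0.06 over 7 genes, with Psma3 at 0.04 and Psma7 at -0.07. That median is the value of Psma8, and Psma5 is in the same list. The other beta subunits, with Psmb11 among them, had a median of -0.05 over 5 genes, with Psmb1 at -0.05 and Psmb2 at 0.05. The 6 ATPases that unfold substrates had a median of 0.06, with Psmc6 at 0.07 and Psmc4 at 0.01, and the 12 non-ATPase subunits of the regulatory particle a median of 0.08, with Psmd8 at 0.13 and Sem1 at 0.07. Among 8 assembly chaperones (median 0.01) Pomp, the maturation factor that immunoproteasome assembly also uses, stood at 0.02 and Psmd5 at -0.13. The one gene outside 0.25 was Psmd9, a chaperone named after its value was seen, at -0.33 (limma adjusted p = 0.55). Psme4, an activator of another kind, stood at 0.02 and Psmf1, an inhibitor, at 0.05.

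The AT90ES replicates differed mostly in one direction across these genes. Of the 40 genes 34 (85%) read higher on AT90ES replicate 1 than on AT90ES replicate 2. Between the mock arrays, 16 of the 40 read higher on replicate 1. The 3 constitutive subunits, 2 of 3 inducible subunits and 1 of 3 activators read higher on AT90ES replicate 1. Among genes above the olfactory receptor percentile on all arrays the share higher on AT90ES replicate 1 was 60.3%, and among all genes 51.4%. Genes read on 1 array are no independent replicates, and the part of this gap in the values above was not tested.

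The next genes act after the proteasome. In the list of peptide transport, trimming and loading, 2 of 12 measured genes rose, 0 fell and 10 did not pass. With an intensity trend 4 were higher, at an unadjusted p under 0.05 5, and without any 1 array 1. Tapbp, the bridge between the transporter and class I molecules, rose by 2.21 ± 0.13 (limma adjusted p = 0.00389). That is its brightest probe, and with the mean of all its probes the rise was 1.75 (limma adjusted p = 0.0109). Tap1 read 5.68 and 5.50 in mock and 7.34 and 6.99 in AT90ES cells. It rose by 1.58 ± 0.16 (SE, limma adjusted p = 0.0291), a call lost in each of the 4 fits without an array (adjusted p from 0.0679 to 0.14) with a crossed replicate block, which pairs arrays of unlike number (0.0705), and with every probe tested separately (0.176, the highest over the alternatives, which began at 6.12e-05). The median of the list was 0.15. Erap1, the enzyme that trims peptides in the endoplasmic reticulum, and Tap2, the partner of Tap1, are added here with their values known and stood at 1.01 (limma adjusted p = 0.0543) and 0.59 (limma adjusted p = 0.54). Erap1 passed with an intensity trend (adjusted p = 0.000447), with dim genes left out (0.0169) and after centring on the array median (0.00684), and its adjusted p reached 0.395 under the other alternatives.

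Tap1 and Psmb9 start from the same stretch of DNA in opposite directions. Since the Psmb9 probe read near background on these arrays, the size of any change in Psmb9 is uncertain, and the comparison of the pair is given as a description. On each array the level of Tap1 minus that of Psmb9 was taken. This comparison and that of Tap2 with Psmb8 were added after the values were seen. The difference moved by 1.78 ± 0.27 on the log2 scale (SE, n = 2 per group) and the groups did not overlap (exact permutation p = 0.333, the smallest possible). It stayed between 1.54 and 2.02 whichever array was left out. For Tap2 and Psmb8, the next neighbours, the difference moved by 0.44 ± 0.34 (exact permutation p = 0.333), from 0.10 without AT90ES replicate 2 to 0.78 without AT90ES replicate 1. Over the 5 pairs compared, the adjusted p was at least 0.555. Tap2, too, exceeded the olfactory receptor percentile on only 1 of 4 arrays.

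Of 3 measured genes listed for MHC class I, 0 rose and 0 fell in limma. With an intensity trend 2 were higher, and at an unadjusted p under 0.05 also 2. The 3 were H2-K1, B2m and Nlrc5, which is a regulator of class I genes and not a chain. Nlrc5, named after its value was seen, stood at 0.21 (limma adjusted p = 0.705). It exceeded the olfactory receptor percentile on 3 of 4 arrays. B2m, the light chain, stood at 0.30 (limma adjusted p = 0.546) and H2-K1, a heavy chain, at 1.01 (limma adjusted p = 0.119). Both passed with an intensity trend (adjusted p = 0.00259 and 0.00293), and H2-K1 also with dim genes left out (0.0429) and with arrays centred on their median (0.00765). Over the alternatives the adjusted p reached 0.861 for B2m and 0.424 for H2-K1.

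Of 8 measured transcription factors tied to proteasome genes, 2 rose, 0 fell and 6 did not pass, with a list median of 0.61. With an intensity trend 5 were higher, with dim genes left out 4, at an unadjusted p under 0.05 5, and without any 1 array 1. Stat2 rose by 1.98 ± 0.12 (SE, limma adjusted p = 0.00389) and Irf9 by 1.26 ± 0.13 (limma adjusted p = 0.0308), the latter lost in each fit without an array (adjusted p from 0.119 to 0.219) with the crossed replicate block (0.0525) and with every probe tested separately (0.188), with a range over the alternatives from 0.000261 to 0.219. Their products join in the complex that reads the interferon-stimulated response element. Irf1, a factor known to drive Psmb9 and Tap1 and named after its value was seen, read 5.59 and 5.95 in mock and 7.02 and 6.98 in AT90ES cells. The change of 1.23 ± 0.16 on the log2 scale did not pass in limma (adjusted p = 0.0622) and passed with an intensity trend (0.000517), with dim genes left out (0.023) with arrays centred on their median (0.00251) and with a replicate block (0.0488), up to 0.395 under the other alternatives. Of 9 measured interferon-stimulated genes taken as a yardstick 8 rose, 0 fell and 1 did not pass. Ifit1 rose by 6.05 ± 0.12, Mx2 by 4.41 ± 0.13, Rsad2 by 4.25 ± 0.12 and Isg15 by 4.16 ± 0.14 on the log2 scale (limma adjusted p from 8.48e-05 to 0.00062). The 1 that did not pass was Bst2, named after its value was seen, at 0.64 (limma adjusted p = 0.349). Mx2 lay under the olfactory receptor percentile on both mock arrays, so the size of its rise is uncertain. The same holds for Gbp3 and Igtp, named after their values were seen. Only 4 of the 9 genes lay above that percentile on all arrays. That list is known to hold risen genes from earlier results of these data and is no independent evidence.

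**Figure D4:**
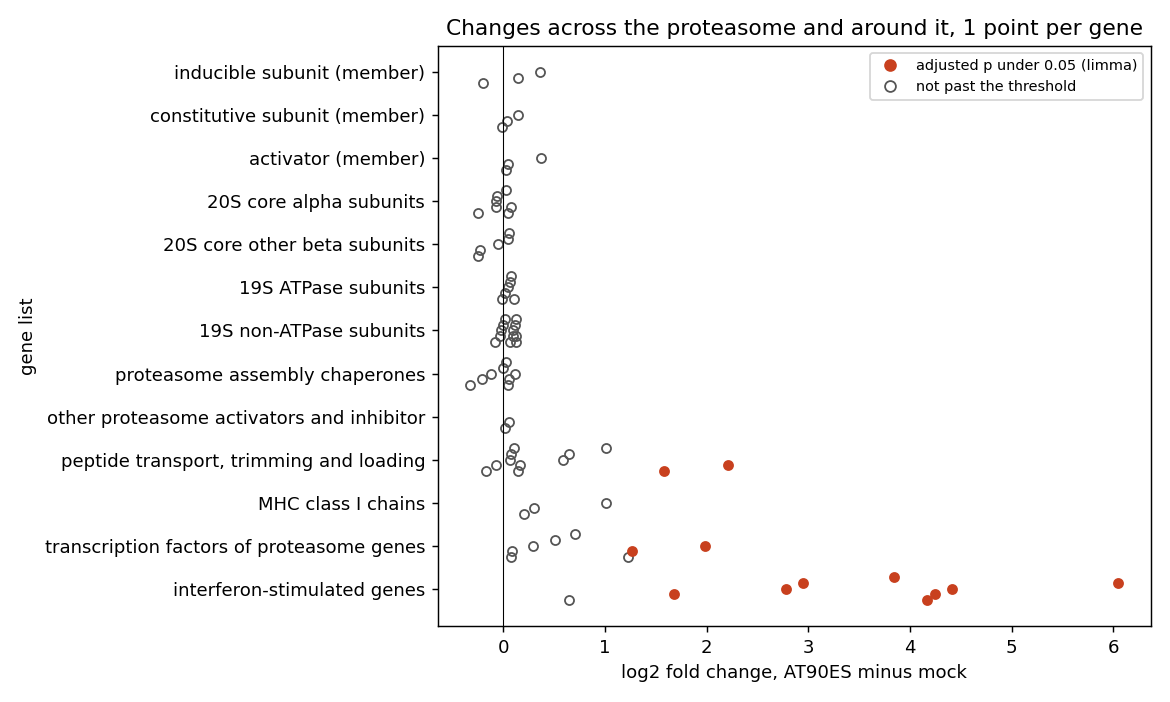
Log2 fold change, AT90ES minus mock, of each measured gene (1 point per gene) by list, filled where the adjusted p in limma was under 0.05. All points of the 9 proteasome genes and of the 6 other proteasome lists are open and lie between -0.33 and 0.37, whereas 2 peptide loading genes, 2 transcription factors and 8 interferon-stimulated genes are filled.

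The genes most like each inducible subunit were sought among 11030 named genes above the olfactory receptor percentile on all arrays, by the Euclidean distance over the 4 arrays between levels centred on the mock mean. Nearest to Psmb10 were Slc38a7, Sash1 and Irf7 (distances 0.0242, 0.0268 and 0.0316), with log2 fold changes of 0.36, 0.36 and 0.35. None of them passed in limma (adjusted p from 0.459 to 0.478). Irf7 is a transcription factor of the interferon response. Its mock levels, 5.22 and 5.12, lay close to the olfactory receptor percentiles of those arrays, 5.07 and 4.93. Nearest to Psmb9 were Polr2e, Eml3 and Lcn12 (0.00784, 0.0278 and 0.0291), and nearest to Psmb8 were Ap5b1, Tmeff1 and Trmo (0.0523, 0.117 and 0.122). The choice by distance fixes that such genes have changes close to those of the subunit, so these values are a description.

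Markers of the labelled cell type were read on the same arrays. All 7 melanocyte markers lay above the olfactory receptor percentile on all 4 arrays, Dct and Tyrp1 between 12.72 and 12.94, and limma called 0 of them higher and 0 lower (0 and 1 with an intensity trend, and 0 and 1 at an unadjusted p under 0.05). The 1 was Mitf, the master regulator of pigment cells, named after its value was seen, at -0.34 (limma adjusted p = 0.469), with both AT90ES arrays below both mock arrays. Immune cells carry the inducible subunits without stimulation, so markers of leukocytes were read beside them. Of 12 measured, 4 lay above the percentile on all arrays (Cd68 and Lyz2, and, named after their values were seen like Ptprc, Csf1r and Nkg7) and 8 below it on all, among them Ptprc, the pan-leukocyte marker, with a mean of 3.72 in mock and 3.89 in AT90ES cells. The summed log2 level of the 12 was 58.3 and 56.9 in mock and 56.1 and 57.1 in AT90ES cells, and limma called 0 higher and 0 lower (0 and 0 with an intensity trend, and 0 and 1 at an unadjusted p under 0.05). Since 8 of the 12 lay below the percentile on all arrays, the sum cannot tell whether leukocyte content differed. Of 10 fibroblast and endothelial markers, 3 lay above the percentile on all arrays, with summed levels of 48.2 and 48.0 in mock and 47.4 and 48.6 in AT90ES cells, and limma called 0 higher and 0 lower (again 0 and 0 with an intensity trend or at an unadjusted p under 0.05). The others lay below it on at least 1 array, so this sum has the same limit. Among 9 reference genes the median change was 0.05, with Gapdh at -0.02 and Ywhaz at 0.08.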

How the data were processed

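The authors deposited log2 levels of 41345 probes on 4 arrays, processed with RMA according to the submitters' processing notes; RMA equalises the arrays, so changes are relative to other genes. Its software and settings are not given in the sources used here. Per the labels' protocols, an array took 300 ng of total RNA. Probes were named from the platform annotation: 23521 had 1 symbol, 1814 several and 16010 none. The brightest probe stood for each of 22180 genes. All 9 genes matched RefSeq (GRCm38.p6) by gene ID. The groups were compared with limma 3.58.1 (R 4.3.3; lmFit, eBayes, no covariate, no filter), two-sided, Benjamini-Hochberg adjusted over all genes, with 2 residual and 3.7 prior degrees of freedom. The steps were tested on simulated data. The number of arrays limits the precision. Genes named were the members, in each list up to 4 genes past the threshold or the 2 with the highest mean, and the 3 nearest to each inducible subunit; others are said to be chosen after their values were seen. The members and lists were chosen with earlier results of these data known.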

Additional observations from a re-analysis of the deposited data

How the results depend on the processing

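The number of genes called over the whole table moved with the settings, from 92 higher and 0 lower to 431 and 162 with an intensity trend, 165 and 6 with dim genes left out, 172 and 4 after centring on the array median, and 30 higher with every probe tested separately, for reasons not tested. Leaving out 1 array, with the lone array assumed to vary like the other group, gave 32 to 47 higher. Of the 9 proteasome genes 1, Psme1, passed with an intensity trend, and 0 passed under the other settings. Of 107 comparisons of these genes with an alternative, 106 stayed outside the threshold and 11 changed sign, all among values that had not passed. Psmb9 had no value with dim genes left out. Centring on the reference genes shifted all genes by -0.05 and on the median by 0.03. Without 1 array the pair difference of Psmb8 and Psmb5 ran from -0.28 to 0.29, that of Psmb9 and Psmb6 from -0.38 to -0.0027, and that of Psmb10 and Psmb7 from 0.21 to 0.44.

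The labels do not say that replicate numbers pair the arrays. With the replicate number as a block 85 genes were higher, and 0 of the 9 proteasome genes passed. Deviations of same-numbered arrays correlated at -0.22 over genes, so the crossed pairing was added after seeing the data and gave 59 higher, with Tap1 and Irf9 no longer past the threshold. The pair differences were the same with the block (0.01, -0.19 and 0.32).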
